A study of Rattus norvegicus with 6 samples.

Results

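The receptor tyrosine kinase gene Kit, the gene of its ligand (Kitlg, stem cell factor) and 7 genes that mark mast cells were followed in the rat aortic ring culture. The 7 were the granule protease genes Cpa3, Mcpt1, Cma1, Tpsb2 and Tpsab1 and the genes of 2 chains of the high-affinity IgE receptor, Fcer1a and Ms4a2. Each gene was found by an exact match to the single symbol that the array annotation gives a row, and each of the 9 had 1 such row, among 14324 genes in the table. The genes were selected on the day 1 to day 0 difference itself, which earlier results of these data showed as higher for Kit and lower or nearly even for mast cell genes. Their differences between the groups are therefore given below as a description, without a test. Rings were cut from the aorta of male Fisher 344 rats aged 1 to 2 months. Day 0 rings were taken as freshly cut, and day 1 rings had spent 1 day inside a collagen gel under EBM medium without serum. Every group had 3 replicates, each of them pooled RNA from 4 to 6 rings or cultures on an array of its own. The labels name no transgene or drug for either group, and since nothing tells whether an animal gave rings to more than 1 pool, p-values measure only the spread between these pools.

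Kit is the receptor of stem cell factor. Ligand binding pairs receptor molecules, which then phosphorylate each other and recruit adaptors, phosphatidylinositol 3-kinase, SRC family kinases and STAT proteins. Mast cells of connective tissue, among them those of the outer layer of arteries, need this signal for survival and keep the receptor through life, unlike most blood cells, which lose it as they mature. Melanocytes, germ cells, interstitial cells of Cajal and blood progenitors also carry Kit. Stem cell factor is made by stromal, smooth muscle and endothelial cells as a membrane protein that proteases can shed. Mast cell granules hold carboxypeptidase A3, chymases and tryptases bound to heparin, together with histamine. The IgE receptor of the surface triggers their release.

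Median log2 values of the 6 arrays ranged from 5.87 to 5.95, and any pair of arrays correlated over genes at 0.996 to 0.997 if from the same day and at 0.959 to 0.963 if not. A log2 value here is an array signal, in which a difference of 1 is a factor of 2, and day differences are day 1 minus day 0 with the standard error (SE) of a limma fit over all genes. In that fit 48.3% of genes passed an adjusted p of 0.05 (27.6% higher and 20.7% lower on day 1), and in 56.9% of genes the arrays of the groups did not overlap. With each array centred on its median the split turned, to 3463 higher and 3823 lower. The aortic tissue of the labels was borne out by its markers. All 8 measured smooth muscle markers fell by limma, from a summed linear signal of 32978 to 34243 on day 0 to one of 3209 to 3645 on day 1. Of 8 endothelial markers 5 rose and 2 fell, and of 12 fibroblast markers 3 rose and 9 fell. In bulk RNA, fewer cells of a type and less of a transcript per cell cannot be told apart.

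The receptor and its ligand were both about 3-fold higher after the day in culture, while the 5 granule protease genes had log2 differences from -0.78 to -0.09. Kit stood at 5.81, 5.76 and 5.87 on the day 0 arrays and at 7.37, 7.46 and 7.56 on the day 1 arrays. Every culture lay above every ring pool, with a gap of 1.50 between the highest ring and the lowest culture. The log2 difference of Kit was 1.65 ± 0.07 (SE, n = 3 per group), or 3.14-fold, and 1.38% of all genes had a larger rise. Kitlg stood at 6.67, 6.81 and 6.86 on day 0 and at 8.37, 8.42 and 8.31 on day 1. Here too the groups were apart, by 1.45. The difference of Kitlg was 1.59 ± 0.07 (SE, n = 3 per group), or 3.0-fold, with 1.47% of genes rising further. Both genes belonged to the top tail of rises, which is a description only, since the genes were picked for this difference. The replicates of each differed by little, with SDs of 0.06 to 0.10.

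**Figure D1:**
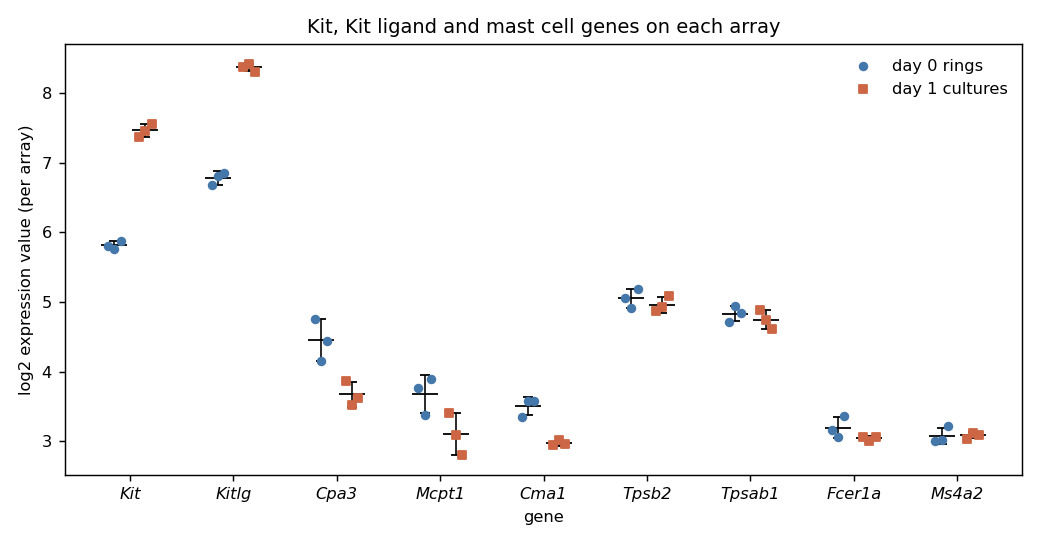
Log2 expression value of each array (vertical axis) for the 9 genes (horizontal axis). Circles are the 3 day 0 ring pools and squares the 3 day 1 culture pools, with the mean as a bar and the SD as whiskers. Kit and Kitlg are higher in all 3 cultures, Cpa3 and Cma1 are lower in all 3, and the groups overlap in the other 5 genes.

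Among the granule proteases, Cpa3, carboxypeptidase A3 of mast cells, stood at 4.75, 4.16 and 4.44 in the rings and at 3.87, 3.52 and 3.62 in the cultures. All cultures were below all rings, but the rings were widely spread (SD 0.30), and the nearest arrays were 0.29 apart. The difference was -0.78 ± 0.15 (SE, n = 3 per group), and the lower signal was 1.72-fold below the higher. Cma1, a granule protease of the chymase family, stood at 3.35, 3.57 and 3.58 in the rings and at 2.94, 3.01 and 2.96 in the cultures. Its groups were also apart, by 0.34, and the difference was -0.53 ± 0.08 (SE, n = 3 per group). Mcpt1, another chymase-type granule protease, stood at 3.76, 3.37 and 3.89 in the rings and at 3.40, 3.10 and 2.80 in the cultures. The lowest ring of Mcpt1 lay within the cultures, so the groups overlapped, with a difference of -0.58 ± 0.18 (SE, n = 3 per group). The rat gene table also lists Mcpt1l1, which shares the older names of Mcpt1. Whether signal of such a near copy entered the Mcpt1 row was not tested.

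Tpsb2 stood at 5.05, 4.91 and 5.19 on day 0 and at 4.86, 4.93 and 5.08 on day 1. Tpsab1, its neighbour on the chromosome and its relative in sequence, stood at 4.71, 4.94 and 4.85 on day 0 and at 4.88, 4.75 and 4.60 on day 1. In both genes the groups ran through each other. The differences were -0.09 ± 0.09 for Tpsb2 and -0.09 ± 0.09 for Tpsab1 (SE, n = 3 per group), and with quantile normalization both changed sign, to 0.01 and 0.02. For paralogs of this kind an array row can take signal from either gene.

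The IgE receptor chain rows were dim on both days. Fcer1a, the chain that binds IgE, stood at 3.16, 3.06 and 3.37 in the rings and at 3.06, 3.0 and 3.06 in the cultures. Ms4a2, the signal-amplifying beta chain, stood at 3.0, 3.01 and 3.21 in the rings and at 3.04, 3.12 and 3.09 in the cultures. The groups overlapped in both. The differences were -0.16 ± 0.09 for Fcer1a and 0.01 ± 0.08 for Ms4a2 (SE, n = 3 per group), the latter at -0.06 with each array centred on its median. The shared gamma chain gene Fcer1g, which is no mast cell marker because macrophages and other leukocytes use it, was at 9.27, 9.20 and 9.23 in the rings and at 10.28, 10.32 and 10.58 in the cultures. It rose by 1.16 ± 0.09 (limma adjusted p = 1.97e-05).

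Set against the receptor, the 5 granule protease genes had a median difference of -0.53, with a range from -0.78 to -0.09. The 7 granule and IgE receptor genes had a median of -0.16, where the median of all genes was -0.01. The median of the 7 was -0.08 with quantile normalization or without day 0 replicate 3. It was -0.22 with each array centred on its median or without day 0 replicate 2. The difference of Kit exceeded that of Cpa3 by 2.43 ± 0.17 and that of Cma1 by 2.18 ± 0.11 log2 units (SE). It exceeded those of the other 5 by 1.64 to 2.22. These SEs take the genes as independent, although all were read on the same arrays, and the pairing by array was left out. Summed as linear signals, the 7 mast cell genes gave 127, 117 and 133 on the day 0 arrays and 108, 102 and 102 on the day 1 arrays. The linear signal of Kit went from 56.1, 54.2 and 58.6 to 166, 176 and 189. In the fit over all genes 5 of the 9 members passed the threshold, 2 upward and 3 downward, and in 4 the groups did not overlap, where 48.3% of all genes passed and 56.9% did not overlap. The count was 4 where Mcpt1 missed the threshold, with quantile normalization and without day 0 replicate 1, day 0 replicate 3, day 1 replicate 2 or day 1 replicate 3. Since this difference is what the genes were picked for, nothing is read from those counts.

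The mast cell rows were dim. Of the 9 members, 6 lay in the dimmest 25% of genes by mean over the arrays, which end at a log2 value of 4.88, and Tpsb2 lay just above that edge. Kit and Kitlg did not, although Kit was no bright row either, with 38.2% of genes dimmer on day 0 and 59.4% on day 1. Those dim genes as a whole had a median difference of -0.08, and 70.1% of them were lower on day 1. Among them 14.2% passed the threshold, 2.35% upward and 11.9% downward, and in 20.4% the groups did not overlap. The median SD of the dim genes was 0.14 on day 0 and 0.13 on day 1, against 0.08 on either day for brighter genes. The differences of Fcer1a, Ms4a2, Tpsb2 and Tpsab1 were between -0.16 and 0.01, and those of Cpa3, Mcpt1 and Cma1 lay below the lower quartile of the dim genes, which was -0.20. That position is a description only, since the members were picked for this difference. The table has no detection call and no array row is at 0, so whether a dim row stood above background is unknown.

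**Figure D2:**
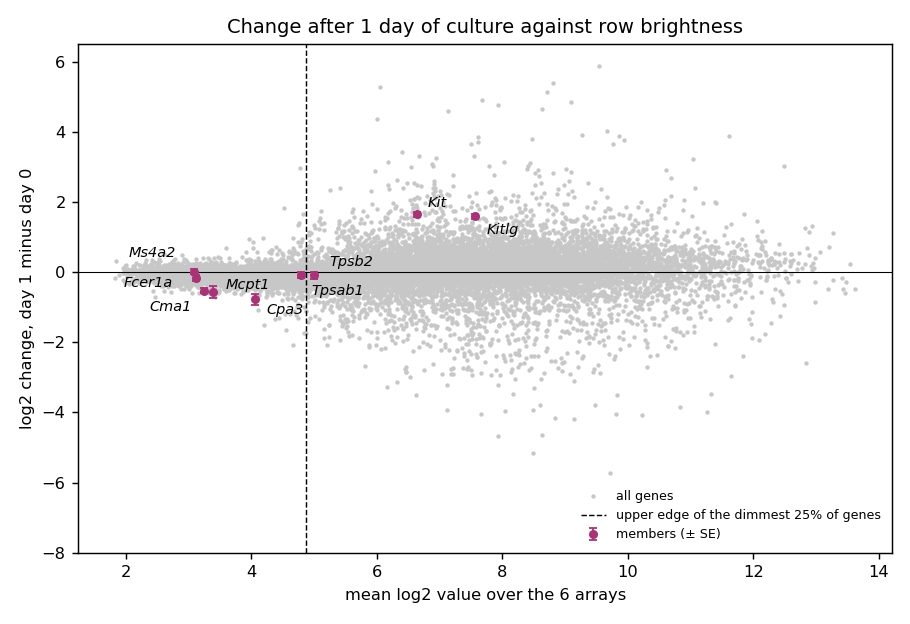
Log2 change from day 0 to day 1 (vertical axis) against the mean log2 value over the 6 arrays (horizontal axis) for all 14324 genes in grey and the 9 members in colour with SE bars. Kit and Kitlg sit right of the dashed line that marks the dimmest 25% of genes, at changes near 1.6, and Cpa3, Mcpt1 and Cma1 sit left of it.

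The sequences before the start sites are shown for the receptor, its ligand and the 3 proteases with the lowest differences, the genes between which the values differed most. RefSeq promoters of assembly GRCr8 were given for 8 of the 9 members, all but Ms4a2, and the 250 bases before the start used there were read. Kit lies at chr14:32978813-32979062, minus strand, Kitlg at chr7:36782410-36782659, plus strand, Cpa3 at chr2:104673238-104673487, minus strand, Mcpt1 at chr15:33841356-33841605, plus strand and Cma1 at chr15:33390134-33390383, minus strand. They run 5′ to 3′ on the strand of the gene. Capitals mark matches to the GATA factor motif (AGATAA or its form AGATAG, and likewise TGATAA or its form TGATAG, on either strand) and to a TATA box (TATAAA, on the gene's strand).
Kit: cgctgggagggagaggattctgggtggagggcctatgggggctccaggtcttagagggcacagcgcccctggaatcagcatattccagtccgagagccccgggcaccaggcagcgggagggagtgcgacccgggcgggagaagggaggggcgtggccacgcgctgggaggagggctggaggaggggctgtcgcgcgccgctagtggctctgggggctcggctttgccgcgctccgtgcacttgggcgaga
Kitlg: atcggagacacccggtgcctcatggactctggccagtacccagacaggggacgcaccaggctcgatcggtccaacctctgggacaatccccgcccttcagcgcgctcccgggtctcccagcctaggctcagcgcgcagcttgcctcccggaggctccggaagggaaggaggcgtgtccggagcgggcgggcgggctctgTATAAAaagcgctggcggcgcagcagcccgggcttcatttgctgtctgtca
Cpa3: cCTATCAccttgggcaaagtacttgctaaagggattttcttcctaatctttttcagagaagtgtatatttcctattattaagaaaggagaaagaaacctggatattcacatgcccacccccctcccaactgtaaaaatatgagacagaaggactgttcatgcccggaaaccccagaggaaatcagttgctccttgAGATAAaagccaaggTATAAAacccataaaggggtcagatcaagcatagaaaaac
Mcpt1: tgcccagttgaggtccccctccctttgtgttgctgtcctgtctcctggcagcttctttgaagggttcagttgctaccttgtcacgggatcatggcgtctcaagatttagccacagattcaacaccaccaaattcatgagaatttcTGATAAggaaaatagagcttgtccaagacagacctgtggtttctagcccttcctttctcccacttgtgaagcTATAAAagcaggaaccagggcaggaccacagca
Cma1: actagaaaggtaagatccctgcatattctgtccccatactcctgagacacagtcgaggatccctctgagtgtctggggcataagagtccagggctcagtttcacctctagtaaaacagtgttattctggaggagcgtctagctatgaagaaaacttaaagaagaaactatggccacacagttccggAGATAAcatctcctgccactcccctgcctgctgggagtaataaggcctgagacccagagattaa

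The upstream sequence of Kit was 70.8% G and C and that of Kitlg 67.2%, against a median of 51.2% over 33469 rat promoters, while Cpa3 had 40.8%, Mcpt1 48.8% and Cma1 48.0%. GATA1 and GATA2 are transcription factors of mast cells, whose motif was present in 27.0% of all promoters of this length. It was found in 4 members. Cpa3 had matches that began 249 and 55 bases before the start, Mcpt1 had one at 105, Cma1 at 64 and Fcer1a at 93. Kit, Kitlg, Tpsb2 and Tpsab1 held none in this window. TATAAA, present in 8.06% of all promoters, stood 51 bases before the start in Kitlg, 40 in Cpa3 and 33 in Mcpt1, and farther off in Fcer1a. A match is a stretch of letters and not a measured binding site.

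A list of genes that carry or restrain the signal from Kit held more rises than falls. Of 35 measured genes of a Kit signalling list 17 rose, 4 fell and 14 did not pass (limma). The share that passed was 60%, against 48.3% of all genes, and the median was 0.21 against -0.01. All 35 lay outside the dimmest 25% of genes, of which 14.2% passed, so no excess is read from that share. Genes outside the dimmest 25% had a median of 0.05. Sh2b2, an adaptor of receptor tyrosine kinases, went from 6.0, 6.34 and 6.16 to 7.62, 7.42 and 7.68, a rise of 1.41 ± 0.11 (limma adjusted p = 1.71e-05). Stat3, a transcription factor downstream of cytokine and growth factor receptors, rose by 1.18 ± 0.07. The SRC family kinases Fyn and Lyn, which bind the activated receptor, rose by 1.10 ± 0.06 and 0.54 ± 0.07, and Jak2 rose by 1.08 ± 0.11. Src itself was lower, at -0.30 ± 0.06 (limma adjusted p = 0.00531). Stat5a, on which mast cell survival depends, rose by 0.48 ± 0.07, while Stat5b did not pass (-0.05 ± 0.06, limma adjusted p = 0.528). Inhibitors of the signal were among the rises, with the phosphatase gene Inpp5d at 0.94 ± 0.07, the ubiquitin ligase gene Cblb at 0.70 ± 0.08 and Sh2b3, Dok1, Spred1 and Spred2 at 0.54 to 0.69. The inhibitor genes Ptpn6 and Socs6 did not pass, at 0.11 ± 0.08 and 0.01 ± 0.06 (limma adjusted p = 0.313 and 0.946). The adaptor gene Grb10 was lower, at -0.76 ± 0.06 (limma adjusted p = 3.04e-05). Socs1, a feedback inhibitor of kinase signalling, was the largest fall, from 7.73, 7.75 and 7.43 to 6.85, 6.64 and 6.60 (-0.94 ± 0.11, limma adjusted p = 1.94e-04). The docking protein gene Gab1 fell by 0.82 ± 0.07. Most of these genes act behind many receptors, in many cell types. Fyn, Lyn, Src, Jak2, Stat5a, Stat5b, Grb10 and the inhibitors other than Socs1 were named after their values had been seen.

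Kit belongs to the class III receptor kinases with the PDGF receptors, Csf1r and Flt3. In this family and its ligands 5 of 10 measured genes rose and 3 fell (limma), with a median of 0.11. That share of 80% stands against 48.3% of all genes, and again no gene of the list was among the dimmest 25%. Pdgfra, which lies next to Kit on the chromosome, went from 9.27, 9.29 and 9.16 to 11.08, 11.04 and 11.16, a rise of 1.85 ± 0.07 (limma adjusted p = 3.71e-07). Of its ligand genes, Pdgfa rose by 1.07 ± 0.07 and Pdgfc fell by 0.70 ± 0.12. Csf1r, the macrophage growth factor receptor, fell by 0.46 ± 0.08, while its ligand genes parted, with Csf1 at 0.95 ± 0.08 and Il34 at -0.75 ± 0.07. Flt3 of early blood cells was at -0.06 ± 0.08 (limma adjusted p = 0.581). Kdr, on the other side of Kit, was not analysed here.

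Proteases that can release membrane-bound growth factors, with an inhibitor of them, made up a list of 6 measured genes. Of these 4 rose and 1 fell (limma, median 0.30). None lay in the dimmest 25% of genes, and 83.3% passed, against 48.3% of all genes. The metalloprotease gene Adam9 went from 10.27, 10.16 and 10.26 to 11.81, 11.81 and 11.88 (1.61 ± 0.06), and the membrane collagenase gene Mmp14 rose by 1.05 ± 0.07. Timp3, an inhibitor bound to the matrix, fell by 0.71 ± 0.06. Adam17, the main sheddase of many ligands, was at 0.09 ± 0.07 (limma adjusted p = 0.301). Mmp9, known to release stem cell factor in bone marrow, was at 0.43 ± 0.14 (limma adjusted p = 0.0389) and lost its call when any of the 3 day 0 arrays was left out (0.0626 to 0.0981). Mmp2, at 0.17 ± 0.06 (limma adjusted p = 0.0435), lost its call whichever array was left out.

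Other genes of mast cell granules went both ways. Of 20 measured, 3 rose, 3 fell and 14 did not pass (limma), a share of 30%, with a median of -0.07. Of the 20, 8 lay in the dimmest 25% of genes, where 14.2% passed, against 48.3% of all genes. Among the remaining granule proteases, the tryptase gene Tpsg1 stood at 5.87, 6.27 and 6.42 on day 0 and 6.26, 6.02 and 6.0 on day 1, with overlapping groups (-0.09 ± 0.14). Prss34 was at -0.12 ± 0.07. Neither passed (limma adjusted p = 0.636 and 0.192). Mcpt4 was at -0.20 ± 0.07 (limma adjusted p = 0.0423, but up to 0.212 under 8 alternatives), Mcpt10 at -0.37 ± 0.15 (0.0701), Mcpt9 at -0.10 ± 0.12 and Mcpt3 at 0.06 ± 0.17. Mcpt10 passed with median centring (limma adjusted p = 0.0359), the replicate block (0.0271) or without day 1 replicate 3 (0.0215). Mcpt8, in rodents a basophil protease, was at 3.33, 3.11 and 3.16 on day 0 and at 4.47, 3.04 and 3.27 on day 1, so that its mean rested on 1 culture. Hdc, which makes histamine, was at 4.78, 4.55 and 4.64 in the rings and at 4.78, 4.39 and 4.58 in the cultures, and did not pass (-0.07 ± 0.11, limma adjusted p = 0.629). Slc18a2, which loads histamine into granules, was at -0.14 ± 0.11. Of the 6 that passed, Mcpt4 is the only protease, and the others serve many cells. Ndst2, an enzyme of heparin sulfation, rose by 0.75 ± 0.07, and Lyst, a gene of lysosome traffic, by 0.52 ± 0.07, and the heparan sulfate enzyme gene Hs3st1 by 0.46 ± 0.07. Rab27a, which docks granules at the membrane, fell by 0.72 ± 0.07, and Srgn, the granule proteoglycan serglycin, by 0.30 ± 0.06.

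Receptors and signalling genes of the mast cell surface were more often higher than lower. Of 22 measured, 12 rose and 2 fell (limma), a share of 63.6% against 48.3% of all genes, with a median of 0.27. Of the 22, 3 lay in the dimmest 25% of genes, of which 14.2% passed, so no excess is read from that share. The lists overlap, so the counts of rises and falls are not separate from those of Kit signalling. Lyn, Fyn, Btk, Plcg1 and Vav1, which rose, and Plcg2 and Gab2, which did not pass, are on both. Il1rl1, the receptor for interleukin-33, is abundant on mast cells and also made by stromal cells. It went from 5.92, 5.89 and 5.85 to 9.19, 9.22 and 9.20, a rise of 3.31 ± 0.06 or 9.95-fold (limma adjusted p = 3.28e-08). Its arrays hardly differed within a group, with SDs of 0.03 and 0.01. Its ligand gene Il33 moved the other way, from 7.44, 7.26 and 7.50 to 6.01, 5.87 and 6.27 (-1.36 ± 0.11, limma adjusted p = 3.11e-05). Csf2rb, the beta chain shared by several cytokine receptors of blood cells, rose by 1.08 ± 0.15. The prostaglandin receptor gene Ptger3 fell by 0.88 ± 0.09. Lcp2, an adaptor behind the IgE receptor, was at -0.24 ± 0.08 (limma adjusted p = 0.0409) and missed the threshold under 6 alternatives (0.0606 to 0.112). Syk, the kinase that couples the IgE receptor, was at 0.08 ± 0.08, and the histamine receptor gene Hrh4 at 0.02 ± 0.13, with adjusted p of 0.466 and 0.929 (limma).

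**Figure D3:**
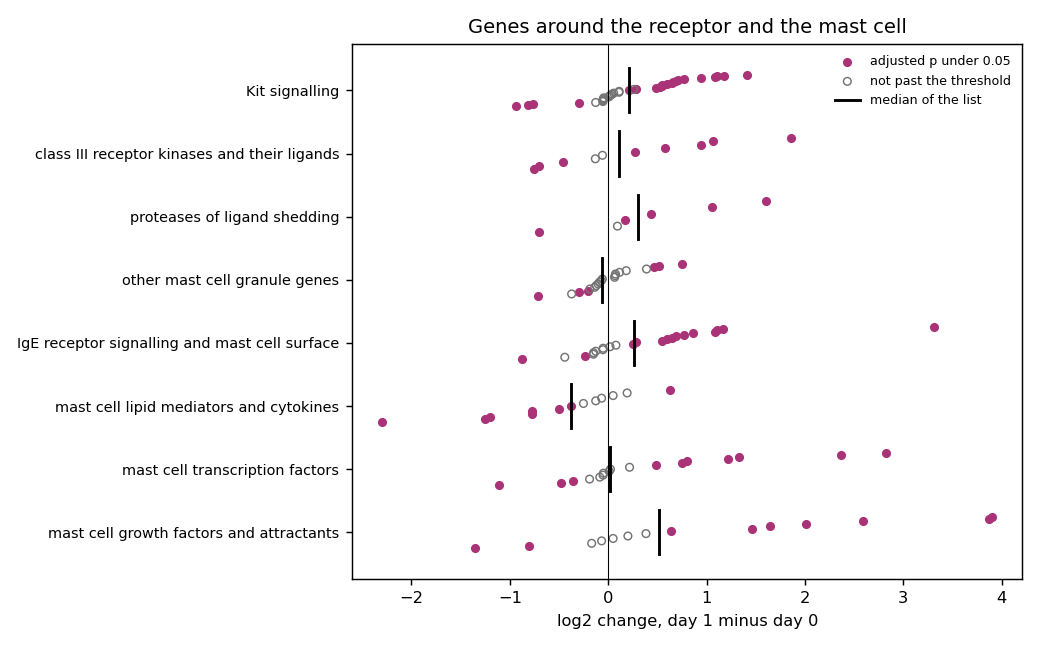
Log2 change from day 0 to day 1 (horizontal axis) of each measured gene in 8 lists (rows), without the 9 members. Filled points passed a limma adjusted p of 0.05, open points did not, and the bar is the list's median. The lipid mediator list has the lowest median, at -0.38, and the growth factor and attractant list the highest, at 0.51.

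The genes for lipid mediators fell together. Of 13 genes of lipid mediators and mast cell cytokines 7 fell and 1 rose (limma), with a median of -0.38 against -0.01 over all genes. The 7 were all of the eicosanoid enzymes on the list. Of the list 61.5% passed, against 48.3% of all genes, and 5 of the 13 lay in the dimmest 25% of genes. Ptgs2, the inducible cyclooxygenase, went from 10.23, 10.08 and 10.22 to 7.73, 7.78 and 8.12 (-2.30 ± 0.11, limma adjusted p = 1.52e-06). Ptgs1, its constitutive relative, fell by 1.25 ± 0.08. The leukotriene genes are given although they stand outside the rule for named genes, after their values had been seen. Alox5, which starts leukotriene synthesis, went from 6.79, 6.81 and 6.72 to 5.68, 5.60 and 5.44 (-1.20 ± 0.08). Its helper gene Alox5ap was at -0.78 ± 0.08 and the leukotriene C4 synthase gene Ltc4s at -0.78 ± 0.06. Pla2g4a, which frees the substrate arachidonic acid, was at -0.38 ± 0.08. Hpgds, the prostaglandin D synthase of mast cells, had overlapping groups (-0.50 ± 0.17, limma adjusted p = 0.0448) and missed the threshold under 8 alternatives (0.0538 to 0.133). Macrophages and other leukocytes also make these enzymes. Of 12 macrophage markers 4 rose and 3 fell (limma), with Cd68 at 1.70 ± 0.06 and Lyve1 of resident macrophages at -2.05 ± 0.08. Their summed linear signal was 3994 to 4259 on day 0 and 5211 to 5706 on day 1, and the part of these cells in the fall was not tested. Nor was that of smooth muscle, whose 8 measured markers all fell, or of other cells of the wall. The cytokine genes of the list other than Tnf were dim, with Il4 at -0.07 ± 0.19 and Il13 at -0.25 ± 0.14 (-0.41 and past the threshold without day 0 replicate 1, limma adjusted p = 0.0102). Tnf, with means of 5.66 on day 0 and 6.29 on day 1, alone rose (0.63 ± 0.16, limma adjusted p = 0.0133).

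**Figure D4:**
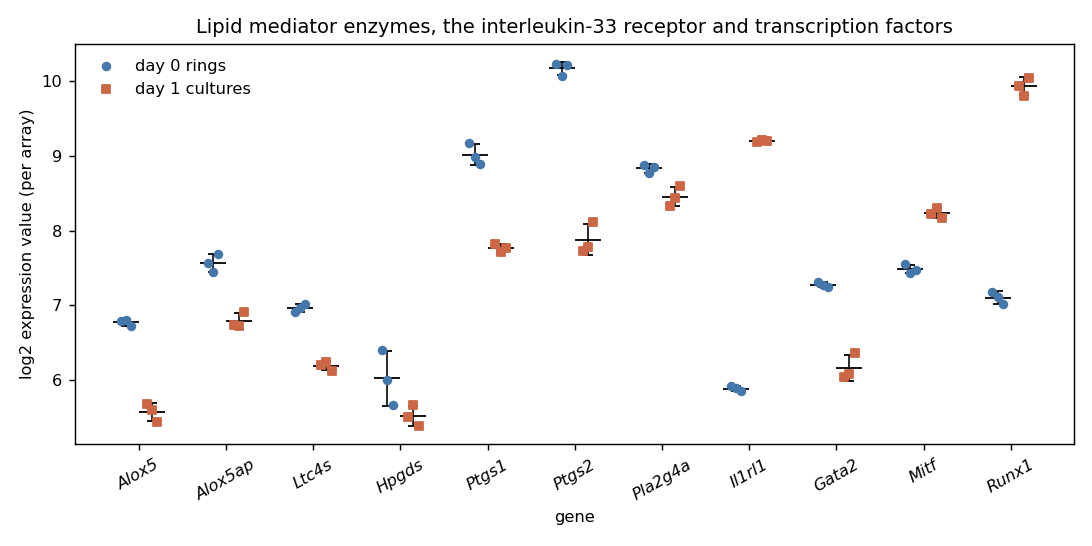
Log2 expression value of each array (vertical axis) for 11 genes of eicosanoid synthesis, interleukin-33 reception and transcription (horizontal axis). Circles are day 0 ring pools and squares day 1 culture pools, with the mean as a bar and the SD as whiskers. The 7 eicosanoid genes from Alox5 to Pla2g4a have lower means in the cultures, with overlap only in Hpgds, while Il1rl1, Mitf and Runx1 are higher and Gata2 is lower in all 3 cultures.

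Transcription factors of the mast cell went both ways. Of 17 measured 7 rose and 3 fell (limma), a share of 58.8% against 48.3% of all genes, with a median of 0.02. Of the 17, 1 lay in the dimmest 25% of genes, of which 14.2% passed, so no excess is read from that share. Stat5a, counted among the rises, is also on the Kit signalling list. Gata2, needed for mast cell development and also active in endothelium, went from 7.32, 7.28 and 7.24 to 6.04, 6.09 and 6.37 (-1.11 ± 0.09, limma adjusted p = 3.07e-05). Zfpm1, a partner of GATA factors, fell by 0.48 ± 0.07. Gata1 and Tal1, which are narrower in their cell range, were at -0.05 ± 0.08 and -0.19 ± 0.14 and did not pass (limma adjusted p = 0.602 and 0.316). Mitf, through which mast cells and melanocytes keep Kit active, went from 7.55, 7.44 and 7.48 to 8.22, 8.30 and 8.18 (0.75 ± 0.06, limma adjusted p = 3.83e-05). It was named after its value had been seen. Runx1 rose from 7.18, 7.12 and 7.02 to 9.94, 9.81 and 10.05 (2.83 ± 0.08), and Bhlhe40 rose by 2.37 ± 0.06. Cebpb, whose product favours other myeloid fates, rose by 1.33 ± 0.10.

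Factors other than stem cell factor that attract mast cells or feed them rose in 7 of 14 measured cases and fell in 2 (limma, median 0.51). The share that passed was 64.3%, against 48.3% of all genes. Of the 14, 3 lay in the dimmest 25% of genes, of which 14.2% passed, so no excess is read from that share. The chemokine genes Ccl2 and Cx3cl1 rose by 3.90 ± 0.16 and 3.87 ± 0.07, from means of 7.31 and 7.93 to means of 11.21 and 11.80. Ccl3 rose by 2.59 ± 0.21, Tgfb1 by 1.64 ± 0.07 and Cxcl12 by 1.46 ± 0.07. Besides Il33, the eotaxin gene Ccl11 was lower (-0.81 ± 0.23, limma adjusted p = 0.0219), a call lost without day 0 replicate 2, day 1 replicate 2 or day 1 replicate 3 (0.0514 to 0.0627). The classic growth factors of mast cells in culture did not pass, with Il3 at 0.05 ± 0.10 and Il9 at 0.20 ± 0.10 (limma adjusted p = 0.705 and 0.138). Il9 passed with quantile normalization (0.27, limma adjusted p = 0.0462) and without day 0 replicate 3 (0.29, limma adjusted p = 0.0380).

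Markers of other cells that carry Kit were read beside its difference. For comparison, 48.3% of all genes passed, and 14.2% of the dimmest 25% of genes (limma). Of 6 melanocyte markers 0 rose and 1 fell by limma (Oca2, -0.52 ± 0.12), Tyr was at -0.15 ± 0.08 (limma adjusted p = 0.155, and 0.0354 with median centring), and their summed linear signal was 210 to 231 on day 0 and 181 to 203 on day 1. Of the 6, 4 lay in the dimmest 25% of genes, so that sum rests mainly on the brighter rows, Oca2 and Sox10. Sox10 was at -0.16 ± 0.08 and Mlana at 0.36 ± 0.15, and neither passed (limma adjusted p = 0.164 and 0.0760). Of 7 markers of interstitial cells of Cajal 2 rose and 2 fell, and the summed signal overlapped, at 4618 to 5050 and 4631 to 4757. The chloride channel gene Ano1 of that list went from 9.74, 9.58 and 9.56 to 11.40, 11.32 and 11.30 (1.71 ± 0.07, limma adjusted p = 8.01e-07). Etv1 rose by 0.29 ± 0.07, Cd34 fell by 1.46 ± 0.08 and the gap junction gene Gja1 by 0.91 ± 0.07. Ano1, Cd34 and Gja1 are also made by muscle, stromal or endothelial cells. They are the brightest rows of that list, so its summed signal mainly sets the rise of Ano1 against the falls of Cd34 and Gja1. Cd34 is also on the blood progenitor list. Of 12 blood progenitor markers 3 rose and 5 fell, with summed signals of 3759 to 3998 and 3703 to 4006. In this sum too a rise, that of Runx1 (2.83 ± 0.08), stood against falls such as that of Cd34. Its similar size on the 2 days does not mean that the markers stayed even. Of 9 basophil and eosinophil markers 1 rose and 3 fell, among them Alox15 (-0.51 ± 0.11) and Prg2 (-0.44 ± 0.10), and their summed signal was 286 to 307 on day 0 and 257 to 289 on day 1. Of 10 lymphocyte markers 1 rose and 2 fell, with summed signals of 222 to 238 and 214 to 230. No row of these lists is at 0, and their part in the difference of Kit was not tested.

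The genes with the most similar course to Kit were ranked by the root-mean-square difference between log2 profiles over the 6 arrays, each centred on its own mean. The nearest of 14313 were Adam9 (0.0468), Taldo1 (0.0575), Litaf (0.0585), Tgfb1 (0.0617), Ppp1r14b (0.0617) and Gabarapl1 (0.0664). Kitlg ranked 30, at 0.101. For Kitlg the nearest were Gabarapl1 (0.0654), Ddt (0.0687) and Ppp1r14b (0.0718), and Kit ranked 17. For Cpa3 they were Rnf144a (0.104), Gne (0.113) and St8sia2 (0.115), and Kit ranked 14090. With 6 arrays in 2 groups, such a ranking mainly sorts genes by the size of their day difference, and no p is attached to it.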

How the data were processed

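Total RNA (200 ng per sample) of 3 ring pools and 3 culture pools was biotin-labelled by the Affymetrix whole-transcript sense protocol, per the labels' protocols. Values in the deposited table are log2 expression levels of 27342 rows on every array. That scale was read off the span of the values. The submitters' processing notes name limma, without a role. Background handling, normalization and probe summaries: not given in the sources used here. An equalising normalization would make each change relative to that of most genes.

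Rows were named through the array annotation, which gave 1 symbol to 15097 rows, several to 323 and none to 11922. Symbols were updated by gene ID (15067 rows) or accession (6) against rat assembly GRCr8, and 24 were kept. Of several rows of a gene the one with the highest mean was kept, leaving 14324 genes. Day 1 was set against day 0 in limma 3.58.1 (R 4.3.3; lmFit, then eBayes without trend, filter or block). P-values were two-sided and Benjamini-Hochberg adjusted across the 14324 genes, with 0.05 as threshold. The fit was tested on simulated data. Tables used pandas 2.3.3 and numpy 2.4.6 under Python 3.11.15, and figures matplotlib 3.10.9. The number of arrays limits the precision.

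The members and the 17 lists (members left out of them) were chosen with earlier results of these data known. Named list genes are the 2 largest rises and 2 largest falls past the threshold in the lists about mast cells, Kit and cells that carry it, fewer where a count summarises a list. All other list genes named were added after their values had been seen. The fit was repeated with each array centred on its median, after quantile normalization, with 2 filters on dim genes, the mean or the most variable row, every row as a feature, a trend with robust prior, array weights, a block for the replicate number, and without each of the 6 arrays in turn. Groups of 3 were not checked for outliers.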

Additional observations from a re-analysis of the deposited data

How the results depend on the processing

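Of 16 alternatives 15 kept Kit, which stayed between 1.58 and 1.69, and all 16 kept Kitlg, between 1.49 and 1.63, the lowest value of Kitlg being that with quantile normalization. Cpa3 (-0.92 to -0.63), Mcpt1 (-0.73 to -0.43), Cma1 (-0.61 to -0.45) and Fcer1a (-0.22 to -0.07) stayed below 0 wherever they were kept. Tpsb2 (-0.16 to 0.01), Tpsab1 (-0.16 to 0.02) and Ms4a2 (-0.06 to 0.08) changed sign. Without the dimmest 25% of genes 6 members drop out, and without genes under the median mean all but Kitlg. The median of the 7 mast cell genes was -0.22 to -0.08 with an array left out and -0.08 with quantile normalization.

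Of all genes 6166 to 6506 passed with an array left out. The count lower on day 1 was 1844 without genes under the median mean and 4483 with every row as a feature. Without genes under the median mean, which also removes list members, 5 genes passed in the class III receptor list, 9 in the IgE receptor and surface list and 4 in the lipid mediator list. In the shedding list 3 passed with median centring and with every row as a feature, and 3 to 4 with an array left out. Same-numbered arrays of the groups hardly deviated together (correlations of their deviations over genes 0.01 to 0.04). This cannot show whether pools of the same number shared animals. With the replicate block 6686 genes passed. Of 66 named list genes past the threshold 60 stayed past it in every alternative that kept them, all but Ccl11, Hpgds, Lcp2, Mcpt4, Mmp2 and Mmp9. Il9, Il13, Mcpt10 and Tyr passed under 1 to 3 alternatives. Src, Stat5b, Grb10, Ptpn6, Socs6, Sox10, Mlana, Btk, Plcg1, Vav1, Plcg2 and Gab2 are outside these counts. Dim rows and 3 pools per group limit what the mast cell rows can show.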
